A study of Mus musculus with 12 samples.

Results

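Fc receptors bind the constant part of antibodies, and the Fc receptor-like proteins are their relatives on B cells. The 8 genes described here are Fcer2a, Fcgr2b, Fcgrt, Faim3, Fcrl1, Fcrl5, Fcrla and Fcer1g, taken by symbol from a table of 21761 mouse genes, 90 of them without a symbol. All 8 were found and all 8 passed the filter on low counts. They were chosen by name and not by a value, although earlier results of these data were known when the list was drawn up.

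Splenic B cells (B220+ CD43-) were labelled with a dye that thins with each division (CFSE or CTV), transferred into uMT hosts, which lack their own mature B cells, and challenged there with LPS, a bacterial product that drives B cells to divide and to make antibody. On day 3 the transferred cells were sorted from the spleen by division. The groups are Div0 (undivided), Div1, Div3 and Div5 (1, 3 and 5 divisions), and, after at least 8 divisions, Div8neg (CD138-) and Div8pos (CD138+). CD138, the product of Sdc1, marks plasmablasts and plasma cells. Each of the 6 groups holds 1 library from host 196 and 1 from host 197, so n = 2 throughout, and all 12 libraries come from hosts that received LPS. The undivided cells are therefore not unstimulated cells. The sample labels give female mice of 8 weeks and the strain B6.SJL-Ptprca Pepcb/BoyJ, whereas the series text names C57/BL6J donors, and the labels do not say which animal the strain refers to. The p-values rest on the spread between libraries of these hosts, and for molecules per cell that spread was taken mostly from other genes. Whether donor cells were pooled is not stated.

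Each gene has its own role. Fcgr2b encodes the inhibitory receptor for IgG, which dampens B cell receptor signals through the phosphatase SHIP-1 when antigen arrives bound to antibody. Fcer2a encodes CD23, the low-affinity IgE receptor of mature follicular B cells, and Faim3 (Fcmr in RefSeq) encodes the receptor for IgM. Fcgrt encodes the heavy chain of the neonatal Fc receptor, which returns IgG from endosomes to the surface and works only with the B2m product. Fcrl1 and Fcrl5 are surface receptors of the B lineage with tyrosine motifs, Fcrla is a relative kept inside the cell, and Fcer1g encodes the adaptor through which the activating IgG and IgE receptors of myeloid and mast cells signal.

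The sequences of 3 start regions are shown because their genes mark the range of the results: Fcer2a had the steepest loss, Fcgr2b gained molecules per cell through the division series, and Fcrla differed least per cell between the first and the last group. RefSeq windows of 300 bases (GRCm38.p6, 250 bases before to 50 after the start) were found for all 8 genes, 10 windows in all, and are printed 5′ to 3′ on the gene's strand. Capitals mark matches, on either strand, to the letters ATGCAAAT (octamer), CAGCTG (E-box) and GAGGAA (PU.1), none of which overlap each other.
Fcer2a, the second of 3 start sites, chr8:3690812-3691111, minus strand: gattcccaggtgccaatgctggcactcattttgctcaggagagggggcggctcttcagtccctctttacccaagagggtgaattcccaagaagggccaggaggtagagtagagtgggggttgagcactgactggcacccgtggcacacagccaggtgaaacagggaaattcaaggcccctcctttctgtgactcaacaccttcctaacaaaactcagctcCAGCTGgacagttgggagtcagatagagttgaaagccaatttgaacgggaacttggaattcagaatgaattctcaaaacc
Fcgr2b, chr1:170976022-170976321, minus strand: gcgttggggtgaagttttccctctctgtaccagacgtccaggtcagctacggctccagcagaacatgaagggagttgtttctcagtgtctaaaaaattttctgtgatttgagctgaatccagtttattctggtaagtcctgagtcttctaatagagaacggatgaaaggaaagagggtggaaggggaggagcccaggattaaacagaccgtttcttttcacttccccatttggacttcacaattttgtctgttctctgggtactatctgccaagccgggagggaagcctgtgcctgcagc
Fcrla, chr1:170927534-170927833, minus strand: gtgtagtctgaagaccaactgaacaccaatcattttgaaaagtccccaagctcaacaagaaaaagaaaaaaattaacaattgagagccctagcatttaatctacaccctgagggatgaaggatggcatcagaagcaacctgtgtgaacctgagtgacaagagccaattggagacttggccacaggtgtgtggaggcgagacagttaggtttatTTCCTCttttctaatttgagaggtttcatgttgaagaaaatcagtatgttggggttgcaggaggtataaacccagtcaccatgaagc

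The printed Fcer2a window, the only 1 of its 3 windows with a match, held CAGCTG 30 bases before the start. The Fcgr2b window held no match. The Fcrla window held TTCCTC, the PU.1 letters on the other strand, 37 bases before the start. Of the other windows, Faim3 had an E-box and a PU.1 match, Fcrl1 had a PU.1 match on each strand and Fcer1g had an E-box, whereas Fcgrt, Fcrl5 and the other Fcer2a windows had none. These letters are common: of 32817 mouse windows of the same length, 28.3% held the PU.1 letters, 16.3% the E-box and 1.74% the octamer. A match is a run of letters and not a shown binding site.

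Several of the genes are neighbours. On chromosome 1 the start of Fcrla lies 48.5 kb from that of Fcgr2b, with Fcgr4, Fcgr3 and Fcer1g following in that order, and on chromosome 3 the start of Fcrl5 lies 59.4 kb from that of Fcrl1. Faim3 lies elsewhere on chromosome 1, 39.1 kb from Pigr, the polymeric immunoglobulin receptor gene. Fcgr2b and Fcgr3, the low-affinity activating IgG receptor gene, are near-identical over the part that encodes the outer domains. The longest run of bases that their coding sequences share is 129 bases, spans exons 3 and 4 of the 8 exons of Fcgr2b-201 (chr1:170966674-170968081, GRCm38, minus strand), and is longer than a read of 50 bases.
Shared by Fcgr2b and Fcgr3: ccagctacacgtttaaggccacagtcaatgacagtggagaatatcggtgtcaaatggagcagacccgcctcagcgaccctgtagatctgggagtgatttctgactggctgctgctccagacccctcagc
Of the 50-base words in Fcgr2b transcripts, 4.38% were shared with another gene, mostly Fcgr3, against 9.58% of those in Fcgr3. Fcer2a shared 1.16% of its words and the other 6 genes shared none. Fcgr3 is therefore reported as uncertain.

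Levels are given on 2 scales that answer different questions. CPM, counts scaled to library size, give a gene's part of all messages. The authors' mRNAs per cell, scaled to synthetic RNAs (ERCC) added to 40000 sorted cells before extraction, give molecules per cell and account for gene length. The deposited total went from 30493 ± 4362 mRNAs per cell (SD, n = 2) in Div0 to 163027 ± 15578 in Div8pos, so a gene can lose part of all messages and still gain molecules per cell. Depth ran from 11551585 to 14975133 gene counts per library, with 113723 to 683173 counts on spike-ins, and the hosts correlated at r of 0.9926 to 0.9946 within groups, over genes, which are not independent replicates. Sdc1 stood at 298 to 313 CPM in Div8pos and at 1.14 to 6.01 CPM elsewhere, so the gated gene followed its labels. The summed CPM of 6 B cell markers was 8419 to 9322 from Div0 to Div5, 6020 to 6149 in Div8neg and 933 to 952 in Div8pos.

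Together the 8 genes gave 102 ± 13.6 mRNAs per cell in Div0, 177 ± 38.6 in Div1, 156 ± 19.8 in Div3, 185 ± 16.7 in Div5, 153 ± 8.02 in Div8neg and 48.1 ± 1.15 in Div8pos (SD, n = 2). As a part of all messages they went from 0.334% ± 0.00324 in Div0 to 0.258% ± 0.00530 in Div5, 0.152% ± 0.000781 in Div8neg and 0.0296% ± 0.00213 in Div8pos. This sum in Div8pos lay below every other group in both hosts. Their make-up changed as well. Fcer2a supplied 27.6% ± 0.308 of the summed molecules in Div0 and 1.01% ± 0.187 in Div8pos, Faim3 went from 26.6% ± 0.505 to 4.99% ± 0.418, Fcgr2b from 5.92% ± 0.0969 to 39.4% ± 1.72, and Fcrla from 11.5% ± 0.0953 to 37.0% ± 1.70. By mean level per cell, Fcer2a was the highest of the 8 in Div0, Div1 and Div3, Fcrl1 in Div5, and Fcgr2b in Div8neg and Div8pos.

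**Figure D1:**
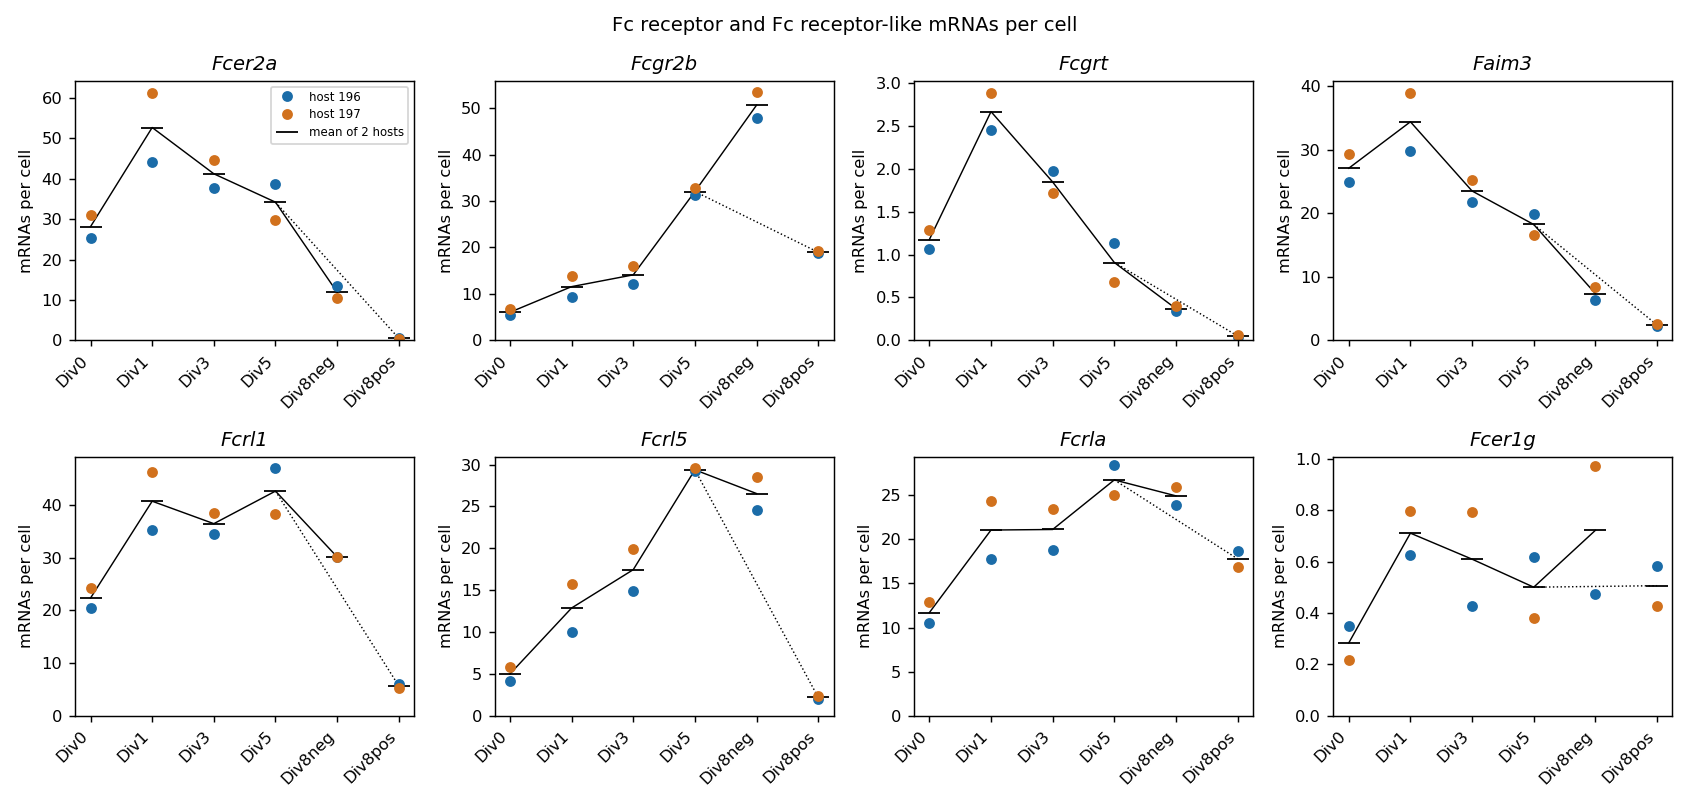
Molecules of each message per cell (vertical axis, mRNAs per cell, from 0) in the 6 sorted groups (horizontal axis). Points are the 2 hosts, dashes their mean, the solid line joins means from Div0 to Div8neg, and the dotted line joins Div5 to Div8pos. Fcgr2b climbs to 50.7 in Div8neg, whereas Fcer2a climbs to 52.7 in Div1 and stands at 0.488 in Div8pos.

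**Figure D2:**
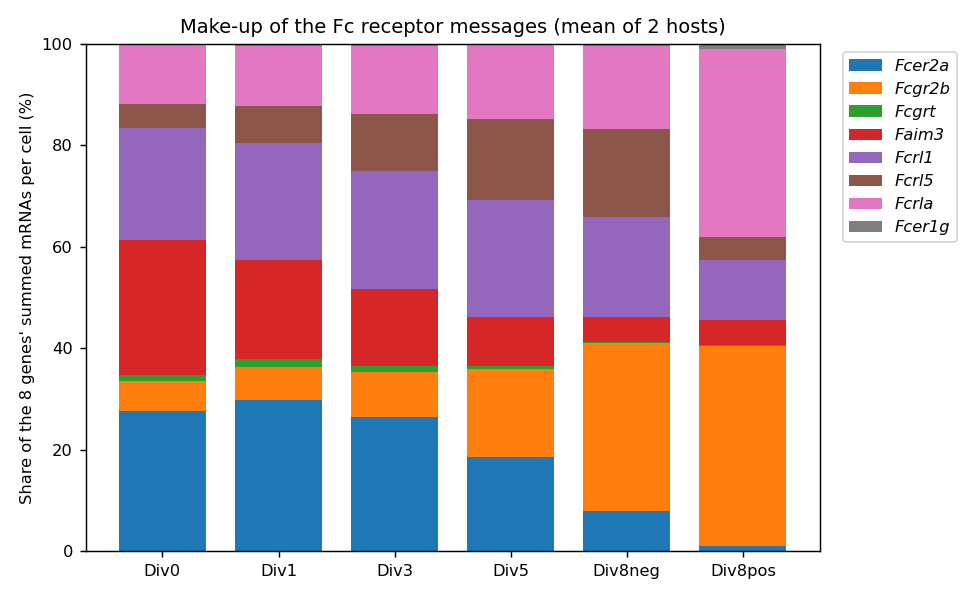
Share of the 8 genes' summed mRNAs per cell (vertical axis, %, mean of 2 hosts) held by each gene in each group (horizontal axis). Fcer2a and Faim3 fill more of the bar in Div0 (27.6% and 26.6%), Fcgr2b and Fcrla in Div8pos (39.4% and 37.0%).

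Fcgr2b, the inhibitory IgG receptor gene, was the member whose molecules per cell were highest late in the division series. Its mRNAs per cell in hosts 196 and 197 were 5.39 and 6.66 in Div0, 9.26 and 13.9 in Div1, and 12.1 and 16.1 in Div3. They were 31.4 and 32.8 in Div5, 47.9 and 53.5 in Div8neg, and 18.7 and 19.2 in Div8pos. The only neighbours in this order whose hosts overlapped were Div1 and Div3, so Div8neg stood above every other group and Div8pos lay between Div3 and Div5. Per cell (limma), Fcgr2b rose 1.88-fold from Div0 to Div1 (log2 0.91 ± 0.23 SE, adjusted p = 0.00151, and 0.0707 without Div0 of host 196 or 0.0576 without Div1 of host 197), did not pass from Div1 to Div3 (0.30, adjusted p = 1), and rose 2.29-fold from Div3 to Div5 (1.19 ± 0.23, adjusted p = 6.2e-05). It rose a further 1.58-fold from Div5 to Div8neg (0.66 ± 0.23, adjusted p = 0.0146), a call that was lost when any 1 of the 4 libraries compared was left out (adjusted p = 0.0517 to 0.159). Over all the divisions, Div8neg held 8.32-fold more per cell than Div0 (adjusted p = 3.96e-23).

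As a part of all messages the gain of Fcgr2b was smaller but ran the same way. Its CPM was 232 and 241 in Div0, 262 and 276 in Div1, 338 and 364 in Div3, 511 and 598 in Div5, 615 and 632 in Div8neg, and 149 and 172 in Div8pos. No 2 neighbouring groups in that order overlapped. By edgeR it rose 1.30-fold from Div1 to Div3 (adjusted p = 0.0101) and 1.58-fold from Div3 to Div5 (adjusted p = 3.63e-05). From Div5 to Div8neg the value was 1.12-fold higher (adjusted p = 0.0669), which passed with the host as a block (adjusted p = 0.00603), as did the value from Div0 to Div1 (1.14-fold higher, adjusted p = 0.162 without and 0.025 with the block). The call from Div1 to Div3 was lost without Div1 of host 196 (adjusted p = 0.106) or Div3 of host 197 (0.105). CD138+ cells had less than CD138- cells on either scale: 3.89-fold less of all messages (log2 -1.96 ± 0.08, adjusted p = 2.82e-12) and 2.66-fold fewer molecules per cell (-1.41 ± 0.23, adjusted p = 6.45e-08). Against Div0, Div8pos was 1.48-fold lower as a part of all messages (adjusted p = 6.56e-06) and 3.13-fold higher per cell (adjusted p = 1.27e-10), so the sign depended on the scale.

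Myeloid cells also make Fcgr2b. Their marker list held 14 of 16 genes in the table, none at 0 in every library. Its summed CPM, like the CPM of Fcgr2b, was highest in Div8neg (158 to 201) and lowest in Div8pos (19.0 to 23.7). It was 55.8 to 82.1 in Div0, 61.4 to 120.9 in Div1 and 62.9 to 96.7 in Div3, which overlapped, and 102 to 140 in Div5. The sum does not show the course of each marker. The dendritic list (5 of 5 genes) was at 7.88 to 9.27 CPM in Div0 and 56.0 to 71.7 in Div5. It was at 50.5 to 67.4 in Div8neg, not above Div5, and at 2.19 to 2.63 in Div8pos. Of this list, Siglech, Xcr1 and Clec9a stayed at or below 1.06 CPM and Zbtb46 at or below 8.92. The integrin genes Itgam (up to 135 CPM) and Itgax (up to 64.2 CPM) gave the highest single values. Of the other myeloid markers, Cd68 was at 7.49 to 34.7 CPM, S100a9 at 1.21 to 32.2, S100a8 at 0.529 to 15.4, Lyz2 at 2.37 to 12.1 and Csf1r at 0.756 to 11.0, whereas Emr1, Csf3r, Lyz1, Cd14, Ccr2 and Mpo stayed below 8 CPM and Fcgr1, the high-affinity IgG receptor gene of macrophages, had 0 to 9 counts per library. The part of such cells in the Fcgr2b values was not tested. In sorted bulk samples, fewer cells that carry a message and less of it per cell cannot be told apart.

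Fcer2a, which encodes CD23, went the other way. Its mRNAs per cell in hosts 196 and 197 were 25.3 and 31.0 in Div0, 44.2 and 61.2 in Div1, and 37.8 and 44.7 in Div3. They were 38.6 and 29.7 in Div5, 13.4 and 10.4 in Div8neg, and 0.559 and 0.416 in Div8pos. Div8neg lay below the first 4 groups and Div8pos below all, whereas Div1, Div3, Div5 and Div0, in that order, overlapped with their neighbours. Per cell it rose 1.85-fold from Div0 to Div1 (log2 0.89 ± 0.23, adjusted p = 0.00181, lost at 0.0743 if Div0 of host 196 was left out and at 0.0513 if Div1 of host 197 was), fell 2.86-fold from Div5 to Div8neg (-1.51 ± 0.23, adjusted p = 7.89e-08), and was 20.4-fold lower in CD138+ than in CD138- cells (-4.35 ± 0.23, adjusted p = 2.62e-34). As a part of all messages the counts behind these values went from 14213 and 12761 in Div0 to 2393 and 1564 in Div8neg and 54 and 41 in Div8pos. By edgeR, Fcer2a fell 1.76-fold from Div3 to Div5, 3.97-fold from Div5 to Div8neg (adjusted p = 3.19e-09) and was 36.0-fold lower in Div8pos than in Div8neg (-5.17 ± 0.18, adjusted p = 4.98e-13). Div8pos was 269-fold below Div0 on that scale (adjusted p = 8.2e-16) and 48.2-fold below it per cell (adjusted p = 6.92e-44). From Div1 to Div3 the value was 1.20-fold lower (adjusted p = 0.228), which passed with the host as a block (adjusted p = 0.0374).

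Faim3, the IgM receptor gene, was the only member of the 8 whose part of all messages was lower at each of the 5 neighbouring steps. Its CPM in hosts 196 and 197 was 503 and 497 in Div0, 394 and 364 in Div1, 285 and 267 in Div3, 152 and 141 in Div5, 38.1 and 46.3 in Div8neg, and 8.56 and 10.5 in Div8pos. No 2 groups overlapped. By edgeR the steps were 1.32-fold (adjusted p = 0.00209), 1.37-fold (0.00194), 1.88-fold (2.78e-06), 3.48-fold (9.93e-10) and 4.44-fold (1.82e-10), each lower and each passing the test. Per cell the early part looked different: 24.9 and 29.3 mRNAs per cell in Div0, 29.8 and 38.9 in Div1, 21.7 and 25.2 in Div3, 19.9 and 16.5 in Div5, 6.33 and 8.35 in Div8neg, and 2.30 and 2.50 in Div8pos. On the per-cell scale the first 3 steps were not called (adjusted p = 0.162, 0.748 and 0.155, the first with a higher mean), and Faim3 was the only member not called per cell from Div0 to Div1, although it passed without Div1 of host 196 (adjusted p = 0.0253). It fell 2.47-fold per cell from Div5 to Div8neg (adjusted p = 2.43e-06) and was 2.95-fold lower in CD138+ than in CD138- cells (adjusted p = 2.37e-09). Its genomic neighbour Fcamr, a receptor for IgA and IgM, also fell as a part of all messages, 2.08-fold from Div3 to Div5 (adjusted p = 0.00193) and 10.8-fold from Div5 to Div8neg (adjusted p = 2.64e-06), from 108 and 84 counts in Div0 to 5 and 4 in Div8neg.

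Fcgrt, the heavy chain of the neonatal Fc receptor, was a minor message throughout. Its mRNAs per cell in hosts 196 and 197 were 1.07 and 1.29 in Div0, 2.46 and 2.89 in Div1, 1.98 and 1.72 in Div3, 1.13 and 0.684 in Div5, 0.337 and 0.401 in Div8neg, and 0.0337 and 0.0660 in Div8pos. Div1 was the highest group and Div0 overlapped with Div5 alone. The values in Div8pos rest on 2 and 4 counts, against 37 in each Div8neg library and 369 and 325 in Div0. Summed over hosts and at equal library size, the ratio of Div8neg to Div8pos was 11.4 (95% interval 5.01 to 32.2, exact Clopper-Pearson, counting error only). Per cell Fcgrt rose 2.17-fold from Div0 to Div1 (adjusted p = 7.53e-05), fell 1.98-fold from Div3 to Div5 (adjusted p = 0.000669) and fell 2.10-fold from Div5 to Div8neg (adjusted p = 6.49e-05). The fall from Div3 to Div5 was lost without Div5 of host 197 (adjusted p = 0.0661). As a part of all messages it fell 3.01-fold and 3.43-fold at these last steps (adjusted p = 3.32e-05 and 5.28e-05), and with the host as a block it also passed as higher from Div0 to Div1 (adjusted p = 0.00392, 0.0794 without) and as lower from Div1 to Div3 (0.0087, 0.163 without). B2m, whose product the receptor needs, held 26.4 ± 4.41 mRNAs per cell in Div0 and 102.5 ± 7.93 in Div8pos (SD, n = 2), from 10243 and 9494 counts in Div0 and 8150 and 7462 in Div8pos.

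Fcrl1 and Fcrl5 are neighbours on chromosome 3 and encode surface receptors, yet their courses differed. Fcrl1 held 20.5 and 24.2 mRNAs per cell in Div0, 35.2 and 46.2 in Div1, 34.5 and 38.4 in Div3, 47.1 and 38.2 in Div5, 30.1 and 30.2 in Div8neg, and 6.01 and 5.39 in Div8pos. Div1, Div3 and Div5 overlapped, and Div8neg lay between them and Div0. Fcrl5 held 4.19 and 5.83 in Div0, 10.04 and 15.7 in Div1, 14.97 and 19.9 in Div3, 29.2 and 29.6 in Div5, 24.5 and 28.6 in Div8neg, and 2.08 and 2.36 in Div8pos. Only Div1 and Div3 overlapped among its neighbours in order, so Fcrl5 was highest in Div5 and Div8neg and Fcrl1 was on a plateau from Div1 to Div5. By edgeR, Fcrl5 rose as a part of all messages from Div0 to Div1 (1.53-fold, adjusted p = 0.000347) and from Div1 to Div3 (1.46-fold, adjusted p = 0.00203), steps at which Fcrl1 was 1.09-fold higher (adjusted p = 0.275) and 1.05-fold lower (adjusted p = 0.741). The rise of Fcrl5 from Div3 to Div5 (1.17-fold, adjusted p = 0.0687) passed with the host as a block (adjusted p = 0.00146), while Fcrl1 fell 1.25-fold (adjusted p = 0.00206), a call lost without Div5 of host 197 (adjusted p = 0.052). Whether these steps differ between the genes was not tested.

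After at least 8 divisions both genes held a smaller part of all messages than in Div5. From Div5 to Div8neg, Fcrl1 fell 1.97-fold (adjusted p = 2.45e-08) and Fcrl5 fell 1.56-fold (adjusted p = 1.98e-05) as parts of all messages, while neither was called on the per-cell scale (adjusted p = 0.0674 and 0.602). In CD138+ against CD138- cells, Fcrl5 was 17.4-fold lower (log2 -4.12 ± 0.11, adjusted p = 3.39e-14) and 11.5-fold lower per cell (-3.52 ± 0.23, adjusted p = 2.51e-27), and Fcrl1 was 7.75-fold lower (adjusted p = 3e-14) and 5.23-fold lower per cell (adjusted p = 6.05e-17). Per cell (limma), Fcrl5 was 5.26-fold higher in Div8neg than in Div0 (adjusted p = 3.66e-17). As a part of all messages (edgeR) it was also higher there, 1.66-fold (adjusted p = 2.12e-06). Between the same groups Fcrl1 was 1.35-fold higher per cell (adjusted p = 0.0646) and 2.37-fold lower as a part of all messages (adjusted p = 2.17e-10). The per-cell rise of Fcrl5 from Div3 to Div5 (1.70-fold, adjusted p = 0.00822) was lost without Div3 of host 196 (adjusted p = 0.246) or without either Div5 library (0.0873 and 0.0548).

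Fcrla, the intracellular relative, changed least in molecules per cell among the 7 members other than the sparsely counted Fcer1g. Its mRNAs per cell in hosts 196 and 197 were 10.5 and 12.9 in Div0, 17.7 and 24.4 in Div1, 18.8 and 23.4 in Div3, 28.5 and 25.0 in Div5, 23.9 and 25.9 in Div8neg, and 18.7 and 16.9 in Div8pos. Div8pos overlapped with Div1 and lay above Div0. Per cell it rose 1.78-fold from Div0 to Div1 (adjusted p = 0.00267, lost at 0.0854 if Div0 of host 196 was left out and at 0.0624 if Div1 of host 197 was) and did not pass at the later steps, with CD138+ cells 1.40-fold below CD138- cells (log2 -0.48 ± 0.23, adjusted p = 0.0515, and 0.0414 with the host as a block). As a part of all messages it was 246 and 253 CPM in Div0, 285 and 288 in Div3, 167 and 166 in Div8neg, and 80.6 and 82.1 in Div8pos. By edgeR, it fell 1.50-fold from Div5 to Div8neg (adjusted p = 1.92e-07) and was 2.05-fold lower in CD138+ than in CD138- cells (-1.03 ± 0.05, adjusted p = 4.6e-11). Its smaller fall from Div3 to Div5 (1.15-fold, adjusted p = 0.00716) was lost without Div5 of host 197 (adjusted p = 0.0772). Against Div0, Div8pos was 3.07-fold lower as a part of all messages (adjusted p = 8.18e-14) and 1.52-fold higher per cell (adjusted p = 0.0103, and 0.121 without Div0 of host 196 or 0.0801 without Div8pos of host 196).

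Fcer1g, the shared signalling adaptor, was sparsely counted, with 9 to 56 counts per library. Its mRNAs per cell in hosts 196 and 197 were 0.351 and 0.217 in Div0, 0.624 and 0.797 in Div1, 0.426 and 0.793 in Div3, 0.618 and 0.383 in Div5, 0.473 and 0.970 in Div8neg, and 0.584 and 0.429 in Div8pos. Apart from Div0, the lowest, every group overlapped with its neighbour in order. Per cell it passed as higher than Div0 in Div1 (2.13-fold, adjusted p = 0.000174), Div8neg (2.07-fold, adjusted p = 1.55e-05) and Div8pos (1.59-fold, adjusted p = 0.0048), but the error SD that limma used (0.228) was below the gene's own (0.43). The last of these did not pass with edgeR scaled to the spike-ins (adjusted p = 0.0803) or with a pseudocount of 1 (0.0616). As a part of all messages Div8pos was 2.72-fold lower than Div0 (log2 -1.45 ± 0.44, adjusted p = 0.00663, and 0.142 without Div0 of host 196), and no neighbouring step passed. The IgE receptor chains that work with Fcer1g in mast cells were at or near 0: Fcer1a had 0 counts in every library and Ms4a2 had 0 to 2. Among activating IgG receptor genes, Fcgr4 had 3 to 211 counts per library, and Fcgr3, of uncertain level, had 36 to 227. The myeloid sums given beside Fcgr2b apply here too, and their part was not tested.

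Relative to all genes, more members were called at the late neighbouring steps than at the early ones, but so were more of all genes tested. Relative to all genes (edgeR), from Div0 to Div1 Fcrl5 rose and Faim3 fell, 2 of 8 against 9.35% of the 12026 genes tested (5.44% higher and 3.91% lower), and 4 of 8 with the host as a block. From Div1 to Div3 Fcgr2b and Fcrl5 rose and Faim3 fell, 3 of 8 against 3.42% (1.9% higher and 1.51% lower), and 5 of 8 with the block. From Div3 to Div5 Fcgr2b rose and Fcer2a, Fcgrt, Faim3, Fcrl1 and Fcrla fell, 6 of 8 against 26.6% (14.2% higher and 12.4% lower). From Div5 to Div8neg all but Fcgr2b and Fcer1g fell, 6 of 8 against 26.6% of genes called lower and 53.4% called in either direction. In Div8pos against Div8neg all but Fcer1g were lower, 7 of 8 against 35.4% called lower and 72% in either direction. The median log2 change of the 8 genes was 0.17, -0.11, -0.57, -0.81 and -2.55 at these 5 steps, against values between -0.01 and 0.01 over all genes tested. Against Div0, 7 of 8 passed in Div8neg (2 higher and 5 lower, against 71% of genes, 35.3% higher and 35.7% lower) and 8 of 8 were lower in Div8pos (background 82.4%, with 42.2% lower).

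**Figure D3:**
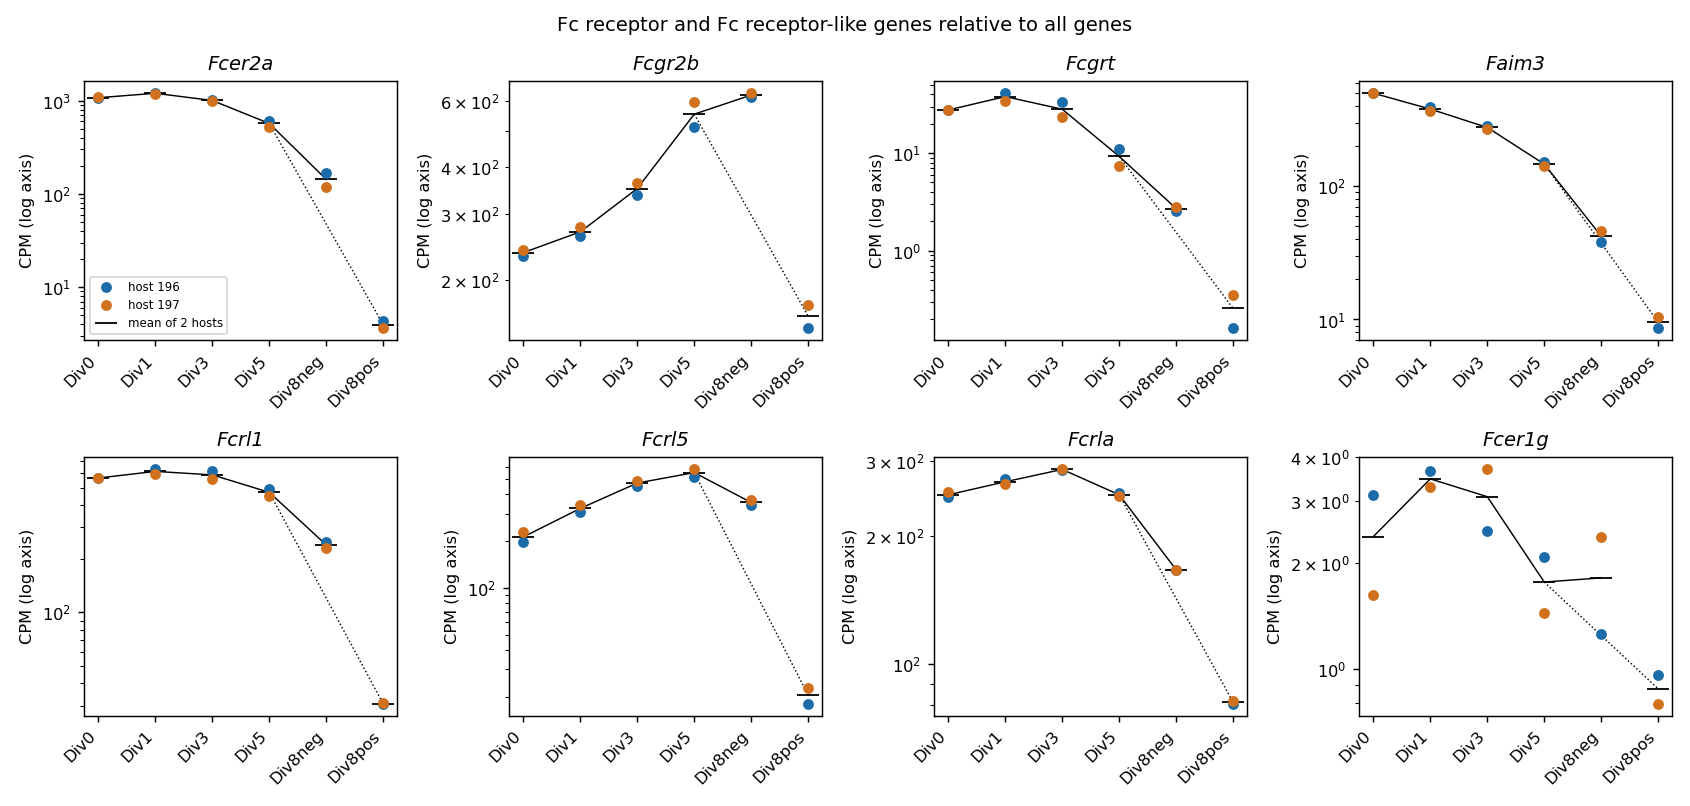
CPM of each gene (vertical axis, log scale, each panel with its own range) in the 6 groups (horizontal axis). Points are the 2 hosts and dashes their mean, with the solid line up to Div8neg and the dotted line from Div5 to Div8pos. Faim3 falls from 500 in Div0 to 9.52 in Div8pos, and Fcgr2b rises to 624 in Div8neg before 160 in Div8pos.

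Per cell (limma), the median gene itself moved, by log2 0.63, -0.07, 0.47, 0.41 and 0.49 at the 5 steps, so the members are read against that shift. From Div0 to Div1, 7 of 8 members rose, against 77% of genes tested called higher and 77.1% in either direction, with a member median of 0.90. Leaving out the host 196 library of Div0 gave 3, and leaving out the host 197 library of Div1 gave 4. From Div1 to Div3, 0 of 8 passed, against 0.516% of genes, while 3 had an unadjusted p under 0.05 and edgeR scaled to the spike-in counts also called 0. From Div3 to Div5, 3 of 8 passed (Fcgr2b and Fcrl5 higher, Fcgrt lower), against 43.2% (42.7% higher and 0.416% lower), with a member median of 0.00. That count was 1 without Div5 of host 197. From Div5 to Div8neg, 4 of 8 passed (Fcgr2b higher; Fcer2a, Fcgrt and Faim3 lower), against 45.8% (42.3% higher and 3.56% lower), with a member median of -0.32. In Div8pos against Div8neg, 6 of 8 were lower (all but Fcrla and Fcer1g), against 16.3% of genes called lower and 68.4% in either direction, with a member median of -1.61. Against Div0, 3 of 8 were lower in Div8neg (Fcer2a, Fcgrt and Faim3), where 1.65% of genes were called lower, 88.4% higher and 90% in either direction, and 5 of 8 were lower in Div8pos (those 3, Fcrl1 and Fcrl5), where 6.65% were called lower, 82.5% higher and 89.1% in either direction. Fcgr2b, Fcrla and Fcer1g were called higher than Div0 on this scale in both Div8neg and Div8pos. The median gene rose by log2 1.41 in Div8neg and 1.84 in Div8pos. Fcrla (1.09 and 0.61) and Fcer1g (1.05 and 0.67) rose less than that in both, and Fcgr2b (3.06 and 1.65) in Div8pos only. The Div8pos calls of Fcrla and Fcer1g were lost under some alternatives, as given above.

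**Figure D4:**
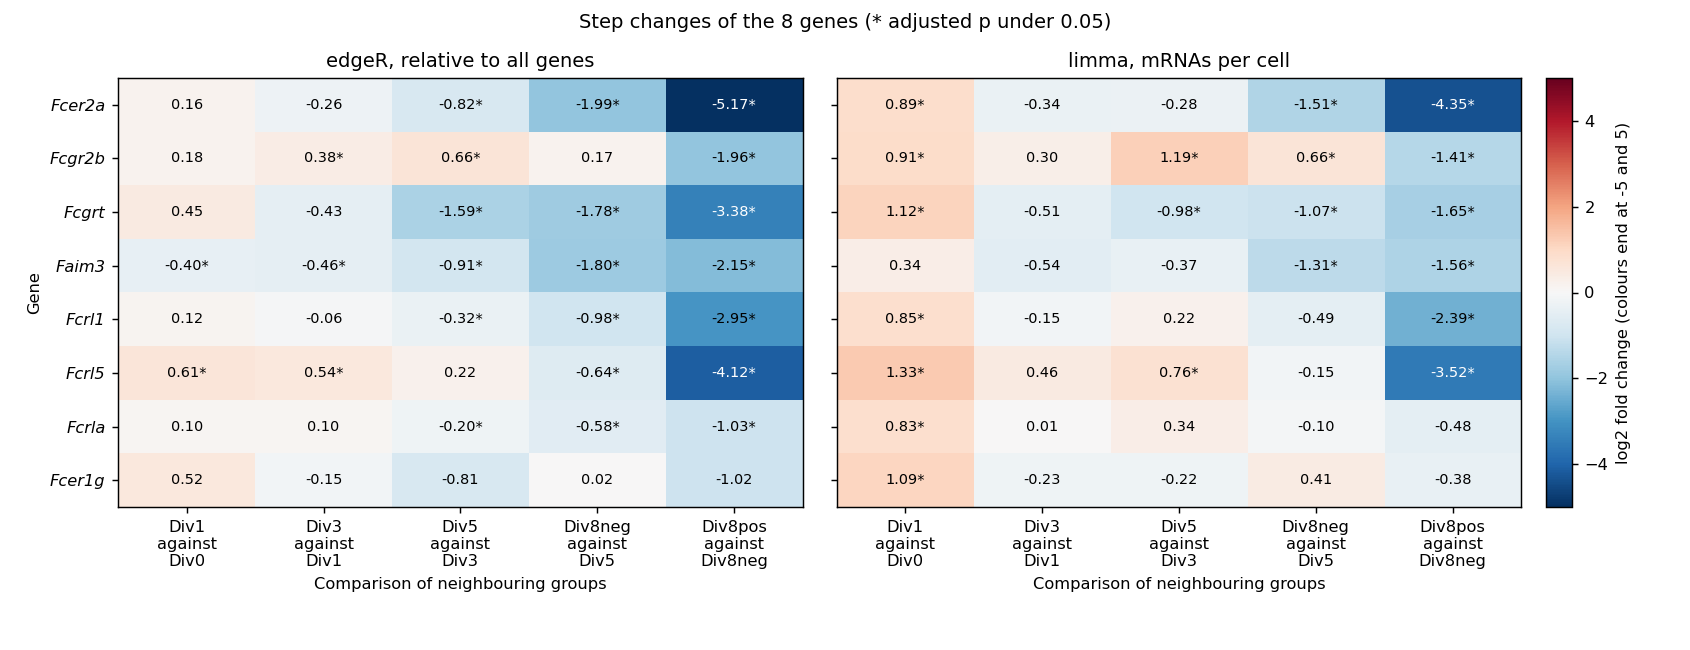
Log2 fold changes of the 8 genes (rows) at the 5 neighbouring comparisons (columns), relative to all genes by edgeR (left) and per cell by limma (right), with an asterisk where the adjusted p is under 0.05. The last column is blue for every gene on either scale, from -5.17 for Fcer2a to -1.02 for Fcer1g on the left.

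Fcgr2b also differed from most of the other members in how the genes varied together. Over the 12 libraries, log2 CPM of the 7 other genes correlated with each other at Pearson r of 0.66 to 1.00 (21 pairs), and Fcgr2b correlated with them at 0.15 to 0.78 (7 pairs). The ranges overlap through Fcrl5, which correlated with Fcgr2b at 0.78 and with Fcgrt, Faim3 and Fcer1g at 0.76, 0.72 and 0.66. The libraries share groups and hosts, so these are descriptions with no test. The 3 genes whose log2 CPM was most like that of Fcgr2b were Trabd2b, Laptm5 and Tbx21 (r = 0.9882, 0.9878 and 0.9869), of which Laptm5 encodes a lysosomal protein of blood cells and Tbx21 the transcription factor T-bet. Closest to Fcer2a were Trim12a, Cd40 and Snx8 (0.9994, 0.9991 and 0.9991), of which Cd40 encodes a costimulatory receptor. Closest to Faim3 were Smarca2, Gigyf1 and Mif4gd (0.9984, 0.9976 and 0.9971), and closest to Fcgrt were Acad12, Pacsin1 and Sh3tc1 (0.9957, 0.9954 and 0.9952). Fcrl1 was most like Trim12c, Pold4 and H2-Oa (0.9998, 0.9996 and 0.9994), Fcrl5 was most like Cyth4, Pfkfb3 and Syt11 (0.9965, 0.9952 and 0.9945), and Fcrla was most like Rnf166, Unc93b1 and Pbxip1 (0.9986, 0.9979 and 0.9978). The likeness of Fcer1g to its closest genes was lower (Zfp879, Vmn1r65 and Cd5l, 0.9591, 0.9307 and 0.9293).

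Of 12 other Fc receptor genes listed, 6 were tested. Fcgr4, the activating IgG receptor gene next to Fcgr2b, had 19 and 20 counts in Div0, 81 and 94 in Div5, 211 and 193 in Div8neg, and 3 and 12 in Div8pos. It rose 2.57-fold from Div3 to Div5 (adjusted p = 0.00189) and 2.18-fold from Div5 to Div8neg (adjusted p = 0.000418), and was 23.1-fold lower in Div8pos than in Div8neg (adjusted p = 4.15e-09), with passing per-cell values in the same directions. Fcrlb, the neighbour of Fcrla and also an intracellular relative, rose 3.04-fold from Div3 to Div5 (adjusted p = 0.0113), reached 44 and 57 counts in Div8neg and had 1 and 4 in Div8pos, a ratio at equal library size of 18.7 (95% interval 7.77 to 58.9). Trim21, a cytosolic antibody receptor gene with 455 to 982 counts per library outside Div8pos, was 4.54-fold lower in Div8pos than in Div8neg (adjusted p = 9.43e-12). At that step all 6 tested genes were lower on either scale, where 35.4% of all genes were called lower relative to all genes (72% in either direction) and 16.3% per cell (68.4%). Some of the 6 were near the floor. Summed over hosts, Fcamr had 9 counts in Div8neg and 1 in Div8pos, a ratio of 8.35 (95% interval 1.16 to 366). Pigr had 30 and 7. Fcgr3 had 36 to 227 counts per library, and its counts were 1.72% to 2.87% of those of Fcgr2b in all 12 libraries, and 9.58% of its 50-base words are those of Fcgr2b, so its level is uncertain. Fcgr1, Fcrl6, Fcrls and Fcgbp had at most 9 counts in any library.

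**Figure D5:**
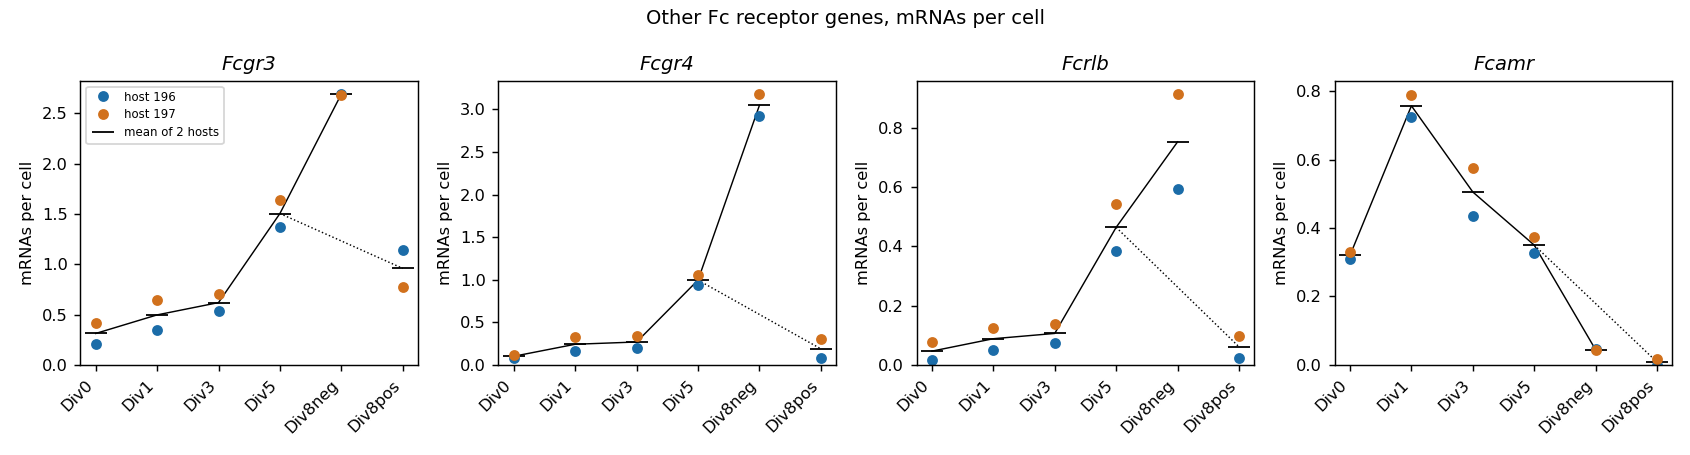
Molecules per cell (vertical axis, from 0) of 4 Fc receptor genes outside the 8 in the 6 groups (horizontal axis), with points for the 2 hosts, dashes for their mean, a solid line up to Div8neg and a dotted line from Div5 to Div8pos. Fcgr4 reaches 3.05 and Fcgr3, which shares part of its sequence with Fcgr2b, 2.69 in Div8neg, while Fcamr is highest in Div1 at 0.757.

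Genes that work with these receptors were given as lists. Of 13 tested inhibitory receptors of B cells outside the 8, 9 were lower and 1 higher in Div8pos than in Div8neg (edgeR; median log2 -3.57), among them Pirb (78.8-fold lower), Ceacam1 (71.2-fold), Cd22 (49.6-fold) and Lilrb4 (45.7-fold), all receptors that damp signals through tyrosine motifs. From Div5 to Div8neg 7 were lower and 1 higher, where 26.6% of all tested genes were called lower and 26.9% higher, including Siglecg (2.16-fold lower), Cd72 (2.11-fold lower) and Cd300a (2.01-fold higher). Of 14 tested effectors of the inhibitory pathway, 11 were lower and 0 higher in Div8pos (median -1.50), led by the phosphatase gene Ptpn6 (7.72-fold lower) and the kinase genes Blk (6.07-fold) and Lyn (5.40-fold), with the adaptor gene Dok2 (4.91-fold). Another adaptor gene of that list, Sh2d1b1, rose 2.49-fold from Div3 to Div5 and 2.19-fold from Div5 to Div8neg. Of 14 tested activating adaptors and kinases, 12 were lower and 2 higher in Div8pos (median -1.17), including Tyrobp (12.5-fold lower), the adaptor of myeloid and NK cell receptors, and Lcp2, which had risen 7.56-fold from Div5 to Div8neg and was 7.21-fold lower in Div8pos. In Div8pos against Div8neg, 35.4% of all tested genes were called lower and 36.6% higher.

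The partners of CD23 and of the neonatal receptor were divided. Of 10 tested partners and regulators of CD23, 7 were lower and 2 higher in Div8pos than in Div8neg (edgeR; median log2 -1.59), against 35.4% of all tested genes lower and 36.6% higher. Il4ra, the receptor chain for the cytokine that induces CD23, was 11.2-fold lower, and its signal transducer Stat6 was 5.73-fold lower. Cr2, the complement receptor that binds CD23, had fallen 3.71-fold from Div5 to Div8neg (adjusted p = 9.97e-08), the step at which Fcer2a fell 3.97-fold. Of 9 tested partners of the neonatal receptor, 6 were higher and 2 lower in Div8pos (median 0.73, against the same 36.6% and 35.4% of all tested genes). Among them were the translocon gene Sec61a1 (3.91-fold higher, log2 1.97 ± 0.07 SE) and the folding enzyme gene Pdia3 (2.01-fold, 1.01 ± 0.08). Rab25 had the largest value but also a far larger error (4.86-fold, 2.28 ± 0.63). The list median was positive at the step at which Fcgrt itself was at 2 and 4 counts.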

How the data were processed

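Whole-transcript RNA-seq was made from 12 sorted samples; the bisulfite libraries of the series are not analysed here. Per the labels' protocols, libraries came from a stranded mRNA kit with 11 PCR cycles and 50 bp paired-end reads, and 5 µl of a diluted ERCC mix entered before extraction. The submitters' processing notes name mm9, Picard and R 3.2.2. Which aligner and counter were used is not given in the sources used here. Raw read counts, which the authors deposited, cover exons of UCSC mm9 KnownGenes. The authors also deposited FPKM per gene and mRNAs per cell, a spike-in scaled signal. In each library the authors' mRNAs per cell equalled their FPKM times 1 factor (0.139 to 0.769), which equalled summed spike-in molecules over summed spike-in FPKM; 1 spike-in made up 43.4% to 47.3% of spike-in counts.

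Counts relative to all genes were tested with edgeR 4.0.16 (quasi-likelihood, TMM factors 0.946 to 1.02, filterByExpr), and log2(mRNAs per cell + 0.1) with limma 3.58.1 (trend), in R 4.3.3, each over all 12 libraries with 6 group means. A per-cell fold change is on that log2 scale and understates the change of low genes. The limma prior weighed far more than each gene's own spread (103 against 6 degrees of freedom), so the standard errors of the members are nearly alike. All genes of a library share 1 spike-in factor, so they share its error, whereas the prior treats genes as independent. Very small per-cell p-values therefore overstate how well the spread between hosts is known. Benjamini-Hochberg adjustment ran over 12026 genes in each of 7 comparisons, with calls under 0.05; 9645 named genes were not tested, and rows without a symbol (90, 0.0498% to 0.0943% of counts) were left out. Exact permutation of 2 against 2 libraries cannot go below p = 0.333, so none is given. Neighbouring comparisons share libraries, as do those against Div0. Depth was 11551585 to 14975133 gene counts per library; intervals cover counting error only. Alternatives were DESeq2 1.42.0 and its size factors, no filter, the 2 groups alone, pseudocounts of 0.01 and 1, spike-in scaled edgeR with and without the most abundant spike-in, the host as a block, and each library left out. Tests were tried on simulated data first, with changes set in Div8pos alone and no error in the spike-in factor. That trial cannot show how such an error affects the per-cell calls.

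Libraries of the same host number come from the same animal per the labels, so the numbers pair the samples. As a check, the host 196 minus 197 difference correlated between groups at 0.02 to 0.299 (median 0.149, 15 pairs of groups, 9 over 0.1). The members and lists were chosen with earlier results of these data known. Beside the 8 members, the text names the 3 genes most correlated with each (log2 CPM, prior count 2) and, from the fixed lists, at most 4 genes per comparison called with a log2 change of at least 1; Fcgr3, Fcgr1, Fcer1a, Ms4a2, B2m, Pigr and single cell type markers were named after their values were seen. Fcer1a, Cpa3 and Cma1 of the mast cell list had 0 counts in all libraries; the other lists (T, NK, platelet and erythroid) stood at 0.227 to 41.9 summed CPM, the highest being the T list in Div8pos, from Cd28. Promoter windows and transcripts are GRCm38, and no coordinates were converted. The tables held 36 columns of per-sample values that were not used (repeated counts and RPM).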

Additional observations from a re-analysis of the deposited data

How the results depend on the processing

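Relative to all genes, 39 of 56 gene and comparison pairs were called; over 17 alternatives, calls were kept in 658 of 663 cases, lost in 5 and turned in sign in 0, and uncalled pairs gained a call in 34 of 289. Per cell, 35 of 56 were called; over 18 alternatives, 604 of 630 were kept, 26 lost, 0 turned, and 13 of 378 gained. The counts of members that moved by more than 1.5 times were these. Relative to all genes, the 2 members called from Div0 to Div1 became 5 without the filter and 4 with the host as a replicate block, and the 3 from Div1 to Div3 became 5 under each of the same alternatives. Per cell, the 7 from Div0 to Div1 ranged from 3 to 8 when 1 library was left out (3 when it was Div0 of host 196, 4 when it was Div1 of host 197), and the 3 from Div3 to Div5 became 1 without the filter and 1 to 3 when 1 library was left out (1 without Div5 of host 197). The replicate block moved no other count of members by over 1.5 times. The cause was not tested.

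Over all genes, calls relative to all genes moved from 1124 to 1713 (block) or 608 to 1215 (1 library left out) from Div0 to Div1, from 411 to 738 (no filter), 755 (block), 206 (the 2 groups alone) or 135 to 403 (1 left out) from Div1 to Div3, and from 3196 to 1211 to 3260 (1 left out) from Div3 to Div5. Per cell they moved from 9277 to 869 to 10297 (1 left out) from Div0 to Div1, from 62 to 28 (pseudocount 1), 0 (no filter), 117 (block) or 43 to 130 (1 left out) from Div1 to Div3, from 5190 to 228 (no filter) or 299 to 7413 (1 left out) from Div3 to Div5, and from 5509 to 2409 to 6675 (1 left out) from Div5 to Div8neg. Where 1 library of a pair was left out, the other was taken to vary like the remaining groups. Depth limits Fcgrt in Div8pos (2 and 4 counts) and Fcer1g everywhere (9 to 56 counts).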
